A study of Mus musculus with 18 samples.

Results

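The miR-297, miR-466, miR-467 and miR-669 families are groups of near-identical mouse miRNAs, most of them encoded as a tandem array inside an intron of Sfmbt2, a gene of a Polycomb-group protein. Their members were taken as every row whose name, without the species prefix, starts with 1 of those 4 stems followed by a letter, a dash or the end of the name. This gave 50 of the 758 mature miRNAs in the table: 24 rows of miR-466, 15 of miR-669, 6 of miR-297 and 5 of miR-467. Rows with the same value in every library were counted once, which left 36 distinct measurements, and 9 of these stood for 23 rows.

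Liver small RNA from mice of the inbred strain C57BL/6J, wild type, was sequenced in 18 libraries that make 6 groups of 3. The groups are LF and HF, taken as a low-fat and a high-fat diet, and each of these combined with CR (LF+CR, HF+CR) or with Ex (LF+Ex, HF+Ex), taken as calorie restriction and exercise; the labels give only the short forms. Regimens began at 5 weeks of age and livers were taken at 62 weeks, and all groups share strain and genotype. Whether a group's libraries stem from different animals is not stated, so the p-values reflect the spread among these samples alone, and that spread may be technical. A library is named by its group and replicate number, as in LF 1.

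A microRNA is cut from a hairpin precursor, whose arms give a 5p and a 3p mature form, and it pairs with messenger RNAs mainly through its seed, bases 2 to 8. Sfmbt2 is an imprinted gene in the mouse, expressed from the paternal copy, and its intronic miRNA array is known from placenta and embryonic stem cells. Many of the mature forms are rich in UG or CA repeats, so copies of a family differ at few positions and short reads often match several of them.

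RefSeq places 81 precursors of the 4 families on the mouse genome (GRCm38.p6), and 71 of them lie within Sfmbt2, on the plus strand of chromosome 2 from 10370440 to 10595253. These 71 comprise 29 precursors of miR-669, 23 of miR-466, 14 of miR-467 and 5 of miR-297. They span positions 10466663 to 10518279, which is 51.6 kb, and 0 of them overlap an exon: all sit in a 62.5 kb gap between Sfmbt2 exons of the GENCODE M21 annotation, from 10461473 to 10523944. Successive precursor starts of a family lay a median of 2.45 kb apart for miR-467, 2.42 kb for miR-669 and 2.42 kb for miR-466. The gaps ranged from 1.91 to 4.88 kb for miR-467, from 0.266 to 5.505 kb for miR-669 and from 0.281 to 4.91 kb for miR-466. The spacing was therefore not even over the whole array, as the map of precursors along the gene shows. The 5 miR-297 precursors had gaps of 1.25 to 36.8 kb.

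**Figure D1:**
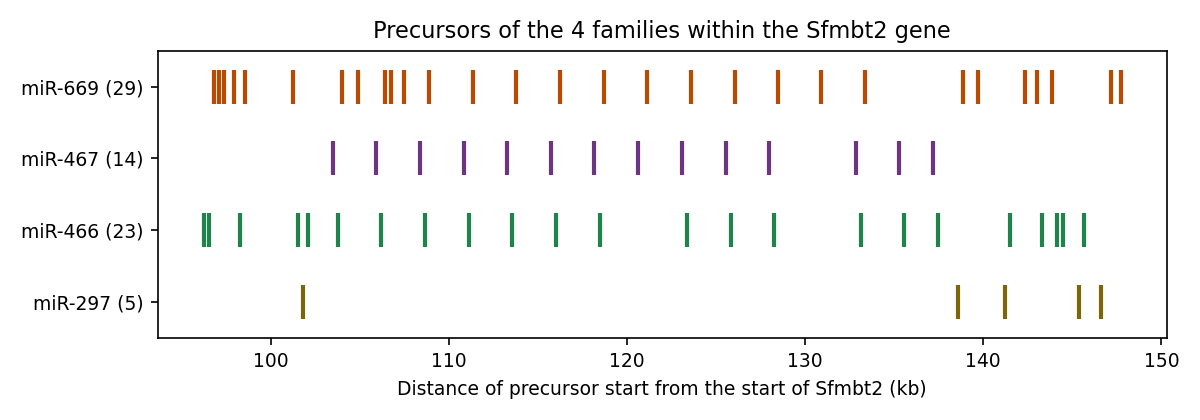
Positions of the 71 precursors that lie within Sfmbt2, by family, as distance of the precursor start from the start of the gene in kb; the number in brackets is the count of precursors. The miR-466, miR-467 and miR-669 precursors alternate in the middle of the array, and 4 of the 5 miR-297 precursors lie towards its end.

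Of the 50 rows, 42 have precursors within Sfmbt2 alone, 5 have precursors both there and elsewhere, and 3 come from elsewhere alone. The RefSeq table of mature sequences (GRCm38.p6) matched 3 of the 50 rows, which are those 3. They are shown, 5′ to 3′ with the seed in capitals, because they display the repeat character of the families and the seeds of these members. For comparison the sequences of miR-574-5p and miR-574-3p are given, both arms of a repeat-rich miRNA of another locus that is followed beside the families below.
miR-466q: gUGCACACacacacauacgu
miR-466i-3p: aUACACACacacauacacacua
miR-466k: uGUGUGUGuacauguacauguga
miR-574-5p: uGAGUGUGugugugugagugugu
miR-574-3p: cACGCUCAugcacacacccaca

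The mature miR-466q is read from chr3:28419988-28420007 on the plus strand, in an intron of Tnik on the same strand. miR-466k comes from chr3:85467396-85467418, plus strand, and miR-466i-3p from chr13:17747552-17747573, plus strand; these lie in introns of Gm37240 and Cdk13, which run on the opposite strand. miR-574-5p comes from chr5:64970328-64970350, plus strand. The longest unbroken run of CA or UG units held 12 of the 20 bases of miR-466q, 10 of the 22 of miR-466i-3p and 8 of the 23 of miR-466k. In miR-574-5p it held 12 of 23 bases. These 5 sequences carry 5 different seeds. miR-466q and miR-466i-3p are of the CA type, and miR-466k of the UG type.

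All 4 families were scarce in liver. Levels are RPM, reads scaled by the authors to a common library total, with no term for length. Summed over the 36 measurements they came to 22.8 ± 10.7 RPM (SD over the 18 libraries), in a tissue where the 4 hepatocyte miRNAs used as a tissue check, such as miR-122-5p, summed to between 278448 and 382765 RPM. By family, miR-669 made up 50.9% of the summed level, miR-466 34.0%, miR-467 13.1% and miR-297 1.99%. The 11 measurements of 3p forms held 60.4% of the sum and the 22 of 5p forms 35.2%; the remaining 3 have no arm in their name. In LF+CR the order was the other way, with 4.37 ± 1.39 RPM of 3p and 5.09 ± 0.954 RPM of 5p forms (SD, n = 3), and the libraries' ranges overlapped.

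A few forms carried most of that signal. The most abundant, written miR-669a/o-3p, is the measurement that the rows miR-669a-3p and miR-669o-3p share, with 33.4% of the sum and a mean of 7.62 RPM. By the mean over all libraries, next came the shared measurement of miR-466a-3p, miR-466b-3p, miR-466c-3p, miR-466e-3p and miR-466p-3p, written miR-466a/b/c/e/p-3p, with 14.9% and 3.40 RPM. miR-669c-5p held 11.02%, miR-467e-5p 9.47% and miR-466d-3p 7.52%. This order did not hold in every group: miR-467e-5p was above miR-466a/b/c/e/p-3p in LF+CR (1.61 and 1.40 RPM), and both miR-467e-5p and miR-669c-5p were above it in LF+Ex (1.74, 1.52 and 1.38 RPM), by less than their spread. Each of the first 2 stands for the output of up to 13 precursors in RefSeq, and the rows do not tell them apart.

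Most members sat near the limit of detection. Only miR-669a/o-3p, miR-466a/b/c/e/p-3p and miR-467e-5p were listed above 0 in all 18 libraries, whereas 14 of the 36 measurements were above 0 in 3 libraries or fewer. Means of at least 0.5 RPM were found for 7 measurements. The other 29 had means between 0.0103 RPM (miR-466o-3p) and 0.495 RPM (miR-466h-5p), and their highest value in any library was 1.67 RPM. The smallest value listed was equal to 2 reads, so a 0 can stand for 0 reads or 1 read.

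Depth limited what could be compared. Reads on listed miRNAs ranged from 2.38 M (megareads, HF+Ex 1) to 10.5 M (LF+Ex 2), and the number of distinct members above 0 from 9 in HF+CR 1 to 24 in HF+Ex 3. Differences were tested with limma on log2(RPM + 1) for measurements with at least 5 RPM in at least 3 libraries, and p-values were adjusted by Benjamini-Hochberg over all 345 that passed. A measurement was called at an adjusted p under 0.05. Only miR-669a/o-3p, at 5 RPM or more in 13 libraries, and miR-466a/b/c/e/p-3p, at 5 RPM or more in 4 libraries of 4 groups, were tested. They stand for 7 rows; the other 34 measurements were not tested.

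miR-669a/o-3p was lowest in LF+CR. The 3 LF libraries held 17.1, 7.23 and 8.95 RPM, and the 3 LF+CR libraries 3.02, 1.58 and 1.90 RPM. The groups did not overlap, and LF 1 stood well above the rest of its group. In bulk tissue, fewer cells of a type and less RNA per cell cannot be told apart. These values rest on 132 reads in LF 1, with an exact 95% Poisson interval of 14.3 to 20.3 RPM, and on 10 reads in LF+CR 2, with an interval of 0.756 to 2.90 RPM; such intervals cover counting error only.

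On the HF diet the spread was wider under CR. HF libraries held 8.05, 13.8 and 11.9 RPM, and HF+CR libraries 4.20, 2.12 and 11.03 RPM. HF+CR 1 and HF+CR 2 were below every HF library, while HF+CR 3 lay within the HF range. With exercise the level was 7.07, 5.28 and 5.77 RPM in LF+Ex and 8.94, 10.3 and 8.92 RPM in HF+Ex. All 3 LF+Ex libraries were below all 3 LF libraries (LF+Ex 1 and LF 2 lay closest), and the HF+Ex libraries lay inside the HF range.

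The group means of miR-669a/o-3p ran from HF, at 11.2 ± 2.93 RPM (SD, n = 3), and LF, at 11.1 ± 5.28 RPM, through HF+Ex at 9.39 ± 0.785 RPM and LF+Ex at 6.04 ± 0.922 RPM, to HF+CR at 5.78 ± 4.66 RPM and LF+CR at 2.16 ± 0.759 RPM. Neighbours in that order overlapped or differed by less than their spread for HF and LF, for LF and HF+Ex, and for LF+Ex and HF+CR. HF+CR and LF+CR also overlapped, since HF+CR 2 lay below LF+CR 1. HF+Ex and LF+Ex did not overlap, but this pair was not compared over all measurements. In the comparisons of 2 groups that were made, 14.8% to 27.8% of all 345 measurements did not overlap.

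miR-466a/b/c/e/p-3p ran at lower levels and in a different order of groups. LF libraries held 7.78, 2.50 and 3.60 RPM, LF+CR libraries 1.64, 0.473 and 2.09 RPM, and LF+Ex libraries 1.90, 0.556 and 1.68 RPM. Every LF+CR and every LF+Ex library was below every LF library, as for 23.8% (LF+CR) and 13.9% (LF+Ex) of all 345 measurements. LF 1 was again the highest of its group.

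On the HF diet the same form showed no such separation. HF libraries held 4.41, 5.47 and 3.08 RPM, HF+CR libraries 3.08, 1.59 and 7.69 RPM, and HF+Ex libraries 3.25, 3.74 and 6.69 RPM. The 3 groups overlapped throughout, and HF+CR 3 was the highest library on this diet. Group means were 4.63 ± 2.78 RPM in LF, 4.56 ± 1.86 in HF+Ex, 4.32 ± 1.20 in HF, 4.12 ± 3.18 in HF+CR, 1.40 ± 0.833 in LF+CR and 1.38 ± 0.723 in LF+Ex (SD, n = 3). The first 4 of these differed by less than their spread, as did the last 2.

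**Figure D2:**
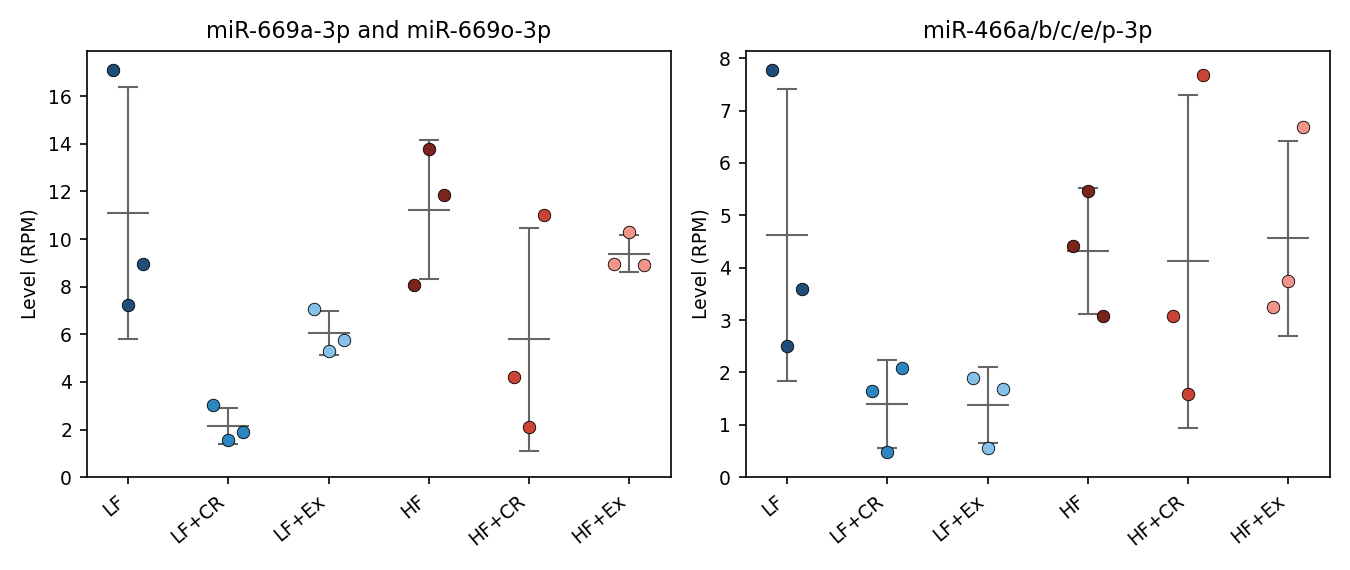
Level in RPM of the 2 tested measurements in each library, by group; points are libraries, the long bar is the mean and the whiskers are 1 SD (n = 3). For miR-669a/o-3p the LF+CR libraries lie between 1.58 and 3.02 RPM, below all LF libraries, and for miR-466a/b/c/e/p-3p both LF+CR and LF+Ex lie below LF.

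LF+CR against LF gives the effect of CR with the LF diet. miR-669a/o-3p fell by 1.88 on the log2(RPM + 1) scale (SE 0.41, 95% interval -2.74 to -1.01, limma adjusted p = 0.0186), where the added 1 RPM understates changes of low forms. It was lower in 3 of 3 libraries and ranked 6 of 345 by p. For miR-466a/b/c/e/p-3p the difference was -1.19 (SE 0.48, interval -2.20 to -0.17, limma adjusted p = 0.132), lower in 3 of 3 libraries and not called. Thus 1 of the 2 tested members was called, against 6.09% of all 345 measurements, of which 19 were lower and 2 higher.

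That background was itself tilted downwards. The median difference over all 345 measurements was -0.31 in this comparison, and rescaling the libraries by median-of-ratios size factors moved it up by 0.32. After rescaling the difference of miR-669a/o-3p was -1.62 (limma adjusted p = 0.0169), in a fit that called 3.19% of all measurements. Lower values without overlap were found for both tested members and for 23.8% of all measurements. The call was lost without LF 1 (-1.54, limma adjusted p = 0.0747), without LF+CR 1 (-2.06, adjusted p = 0.0550) and without LF+CR 2 (-1.74, adjusted p = 0.0665). Fitted on the compared groups alone, the difference was the same, the adjusted p was 0.0786, and 0% of all measurements were called.

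HF+CR against HF gives the same contrast with the HF diet. miR-669a/o-3p differed by -1.05 (SE 0.41, interval -1.92 to -0.18, limma adjusted p = 0.243) and miR-466a/b/c/e/p-3p by -0.21 (SE 0.48, adjusted p = 0.905). Neither was called, and limma called 0% of all 345 measurements, although 52 had p under 0.05 before adjustment. This outcome turned on HF+CR 3: without that library miR-669a/o-3p differed by -1.57 (limma adjusted p = 0.0344), in a fit that called 5.80% of all measurements. Without the 3 libraries with the fewest reads (HF+CR 1, HF+CR 3 and HF+Ex 1), the difference was -1.94. That fit leaves 1 HF+CR library, HF+CR 2, which held the lowest level of its group.

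Averaged over both diets, miR-669a/o-3p was lower under CR, although HF+CR 3, at 11.03 RPM, lay within the HF range. The averaged difference was -1.46 (SE 0.29, interval -2.08 to -0.85, limma adjusted p = 0.0195), rank 2 of 345 by p, and -1.31 after rescaling (adjusted p = 0.0172). miR-466a/b/c/e/p-3p differed by -0.70 (SE 0.34, adjusted p = 0.200). So 1 of 2 tested members was called, beside 6.38% of all measurements (21 lower and 1 higher). The call was lost with only the compared groups in the fit (limma adjusted p = 0.0766), without LF 3 (0.0531), without LF+CR 2 (0.0507), without HF 2 (0.0598) and without LF+CR 1 and HF+CR 1 (0.0906). In these fits the difference stayed between -1.52 and -1.39 and 0% of all measurements were called. These averages use the same LF and HF libraries as the comparisons within each diet and are not independent of them.

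The effect of CR was not shown to differ between the diets. The difference of the CR effect, HF minus LF, was 0.83 for miR-669a/o-3p (SE 0.58, interval -0.40 to 2.06, limma adjusted p = 0.535) and 0.97 for miR-466a/b/c/e/p-3p (SE 0.67, adjusted p = 0.535). The count called was 0 of 2, beside 0.870% of all measurements, and 49 had p under 0.05 before adjustment. For miR-669a/o-3p the value was -0.033 without LF 1 and HF+CR 3.

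Exercise was compared with the same controls, and its effect was not tested against that of CR. In LF+Ex against LF, miR-466a/b/c/e/p-3p differed by -1.18 (SE 0.48, limma adjusted p = 0.359) and miR-669a/o-3p by -0.70 (SE 0.41, adjusted p = 0.510). Both were lower in 3 of 3 libraries without overlap, as were 13.9% of all measurements. Neither was called, as was 0% of the background, where 37 measurements had p under 0.05 before adjustment.

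In HF+Ex against HF the differences were -0.21 for miR-669a/o-3p (SE 0.41, limma adjusted p = 0.918) and 0.04 for miR-466a/b/c/e/p-3p (SE 0.48, adjusted p = 0.996), with 0 of 2 called beside 0.870% of all measurements and 31 with p under 0.05 before adjustment. Averaged over diets, Ex gave -0.46 (SE 0.29) and -0.57 (SE 0.34), both with a limma adjusted p of 0.896. The count was 0 of 2 beside 0% of all measurements, and 12 had p under 0.05 before adjustment. The Ex effect differed between diets by 0.49 (SE 0.58, adjusted p = 0.701) and 1.22 (SE 0.67, interval -0.21 to 2.65, adjusted p = 0.390), with 0 of 2 called beside 0.870% and 58 with p under 0.05 before adjustment.

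HF alone against LF alone gave differences near 0: 0.07 for miR-669a/o-3p (SE 0.41, limma adjusted p = 0.955) and 0.00 for miR-466a/b/c/e/p-3p (SE 0.48, adjusted p = 0.995), the latter at -0.031 after rescaling. The count called was 0 of 2, beside 0.290% of all measurements and 41 with p under 0.05 before adjustment. The 95% intervals, drawn in the plot of differences by comparison, reach nearly 1 on the log2 scale to either side, so smaller changes with diet were not detectable at this depth and number of libraries.

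**Figure D3:**
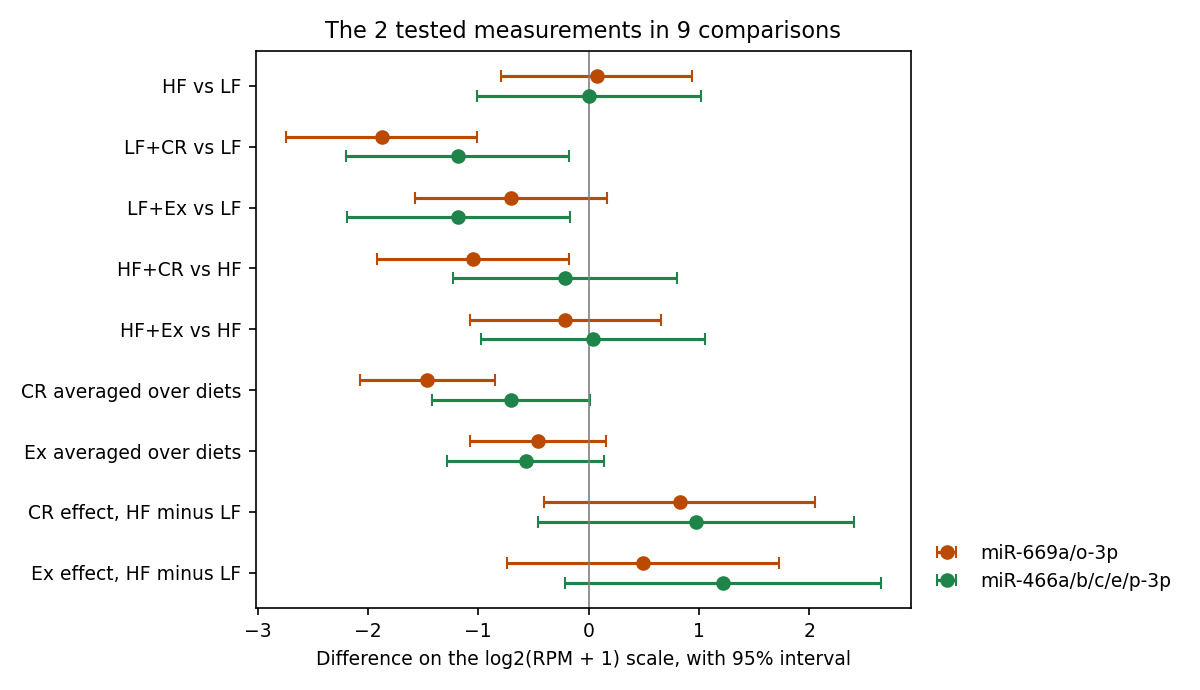
Differences of the 2 tested measurements in the 9 comparisons, on the log2(RPM + 1) scale, with 95% intervals from limma before adjustment; the line marks 0. For miR-669a/o-3p the interval of LF+CR against LF runs from -2.74 to -1.01 and that of CR averaged over diets from -2.08 to -0.85.

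The 5 further members with a mean of at least 0.5 RPM did not pass the filter and are described by their levels. miR-669c-5p, a 5p form of the most abundant family, held 3.89, 2.64 and 4.15 RPM in LF, 0.881, 0.945 and 0.569 RPM in LF+CR and 2.04, 1.67 and 0.842 RPM in LF+Ex. Its LF+CR and LF+Ex libraries all lay below its LF libraries, as for 23.8% (LF+CR) and 13.9% (LF+Ex) of the 345 tested measurements. On the HF diet it was at 3.08 ± 0.437 RPM alone, 3.94 ± 1.18 RPM with Ex, and at 0, 0.881 and 5.68 RPM in the 3 HF+CR libraries, with HF+CR 3 the highest of all 18.

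miR-466d-3p, a 3p form listed apart from the shared 3p measurement of its family, was low under CR on both diets. It held 2.85, 2.50 and 1.64 RPM in LF and 0.629, 0.315 and 0.759 RPM in LF+CR. It held 2.28, 1.90 and 2.77 RPM in HF and 1.40, 0 and 1.34 RPM in HF+CR. Here CR and control libraries did not overlap on either diet, HF+CR 3 included. Of the 345 tested measurements, 23.8% were lower without overlap in LF+CR against LF and 9.57% in HF+CR against HF. Group means with Ex were 1.33 ± 0.539 RPM in LF+Ex and 2.83 ± 0.415 RPM in HF+Ex (SD, n = 3).

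The remaining 3 did not follow this order. miR-467e-5p, the main form of its family, had group means from 1.61 ± 0.464 RPM in LF+CR to 2.60 ± 1.35 RPM in HF+Ex, all overlapping. miR-466q, which comes from Tnik and not from the array, was at 0.305 ± 0.330 RPM in LF and 0.336 ± 0.317 RPM in LF+CR. It was at 0.748 ± 0.0302 RPM in HF, 0.902 ± 0.408 in HF+CR, 1.01 ± 0.401 in LF+Ex and 1.08 ± 0.534 in HF+Ex, with libraries of HF+Ex overlapping those of LF and LF+CR. All HF libraries (0.714 to 0.771 RPM) lay above all LF libraries (at most 0.655 RPM), on 6 reads or fewer a library. In HF against LF 10.7% of the 345 tested measurements were higher without overlap. The shared measurement of miR-669a-5p and miR-669p-5p was highest in HF, at 1.40 ± 0.496 RPM, and listed at 0 in LF+Ex 1, LF+Ex 3, HF+CR 3 and HF+Ex 1. It was at 0.726 ± 0.286 RPM in LF and 0.746 ± 0.267 RPM in LF+CR. It was thus not lower in LF+CR, although the rows miR-669a-5p and miR-669a-3p have the same 12 precursors. Its other group means were 0.0926 ± 0.160 RPM in LF+Ex, 0.409 ± 0.358 RPM in HF+Ex and 0.633 ± 0.559 RPM in HF+CR. All LF+Ex libraries lay below all LF libraries, and all HF+Ex below all HF libraries, on 0 to 9 reads a library. Of the 345 tested measurements, 13.9% and 8.41% were lower without overlap in these 2 comparisons.

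With a lower filter of 1 RPM in at least 3 libraries, 485 measurements were tested, these 7 members among them. In LF+CR against LF 5 of the 7 were below 0, with a median of -1.08 beside -0.29 over all 485, and 1 was called beside 4.12% of all. miR-669c-5p differed by -1.33 (SE 0.48, limma adjusted p = 0.113) and miR-466d-3p by -1.08 (SE 0.32, adjusted p = 0.0689). For CR averaged over diets 2 of 7 were called beside 3.30% of all: miR-669a/o-3p (adjusted p = 0.0198) and miR-466d-3p, at -0.99 (SE 0.23, adjusted p = 0.0295). In LF+Ex against LF 6 of the 7 were below 0, with a median of -0.66 beside -0.18 over all 485. HF+CR against HF also had 6 of 7 below 0 (median -0.60 beside -0.014), as had Ex averaged over diets (-0.31 beside -0.10). HF against LF and HF+Ex against HF each had 2 of 7 below 0. In each of these 0 of 7 were called, beside 0% to 0.206% of all.

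**Figure D4:**
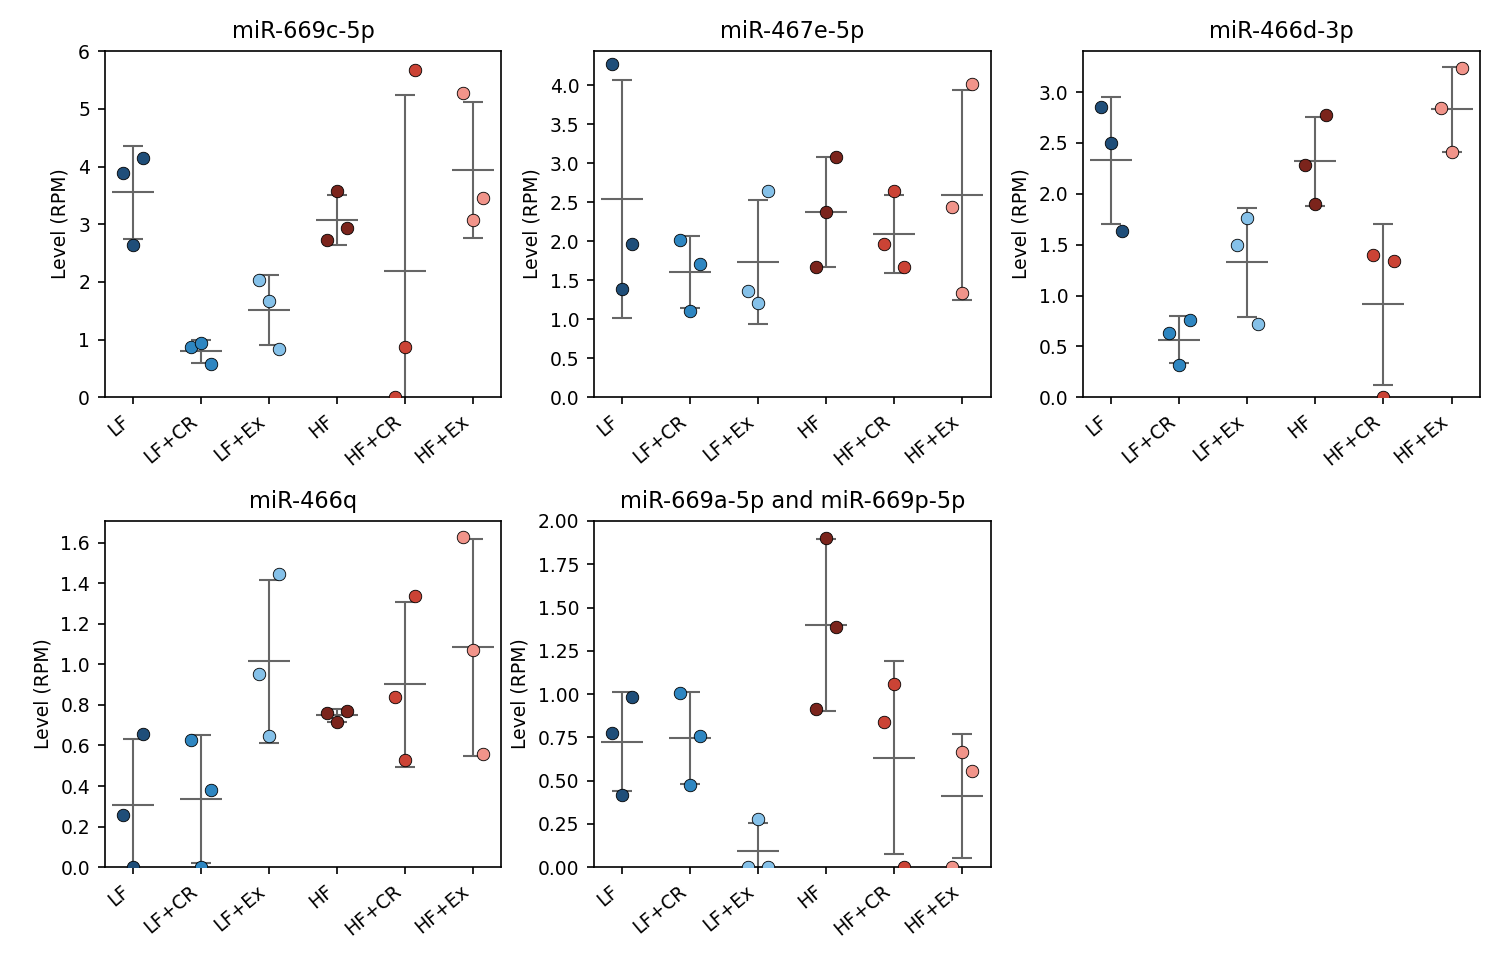
Level in RPM of the 5 further named members in each library, by group; points are libraries, the long bar is the mean and the whiskers are 1 SD (n = 3), not drawn below 0. miR-669c-5p and miR-466d-3p lie lower in LF+CR than in LF, while miR-467e-5p overlaps across all groups.

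Summed levels are given as a description, with no test. The 36 measurements together held 45.7, 18.2 and 24.7 RPM in LF, 12.3, 7.56 and 9.87 RPM in LF+CR, and 18.6, 14.1 and 17.2 RPM in LF+Ex. All LF+CR libraries lay below all LF libraries, and LF+Ex overlapped LF. On the HF diet the sums were 27.9, 36.6 and 29.4 RPM alone, 14.3, 10.9 and 32.4 RPM with CR, and 29.7, 25.8 and 35.02 RPM with Ex, so that HF+CR 1 and HF+CR 2 were low and HF+CR 3 was not.

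The sums of the single families are given in the same way. In LF and LF+CR, the miR-669 sum was 16.95 ± 7.21 and 4.12 ± 1.34 RPM, and the miR-466 sum 8.71 ± 4.89 and 3.45 ± 0.845 RPM (SD, n = 3). In HF and HF+CR these were 17.1 ± 3.22 and 8.72 ± 6.93 RPM for miR-669, and 9.84 ± 2.12 and 7.35 ± 4.54 RPM for miR-466. The miR-467 sum was 3.35 ± 2.27 and 2.07 ± 0.959 RPM in LF and LF+CR, a difference within its spread, and 3.55 ± 0.834 and 2.95 ± 0.412 RPM in HF and HF+CR, and the miR-297 sum was under 1 RPM in every group mean. The miR-466m-5p measurement, which is also miR-669m-5p, is counted with miR-466. Some rows that were not identical throughout still shared values, such as miR-466a-5p and miR-466p-5p in 5 of the 8 libraries that listed either, so reads may be counted in several rows, which would raise the sums. A listed 0 that stands for 1 read would lower them. With all 50 rows added as deposited the means were 60.6 RPM in LF and 18.5 RPM in LF+CR.

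**Figure D5:**
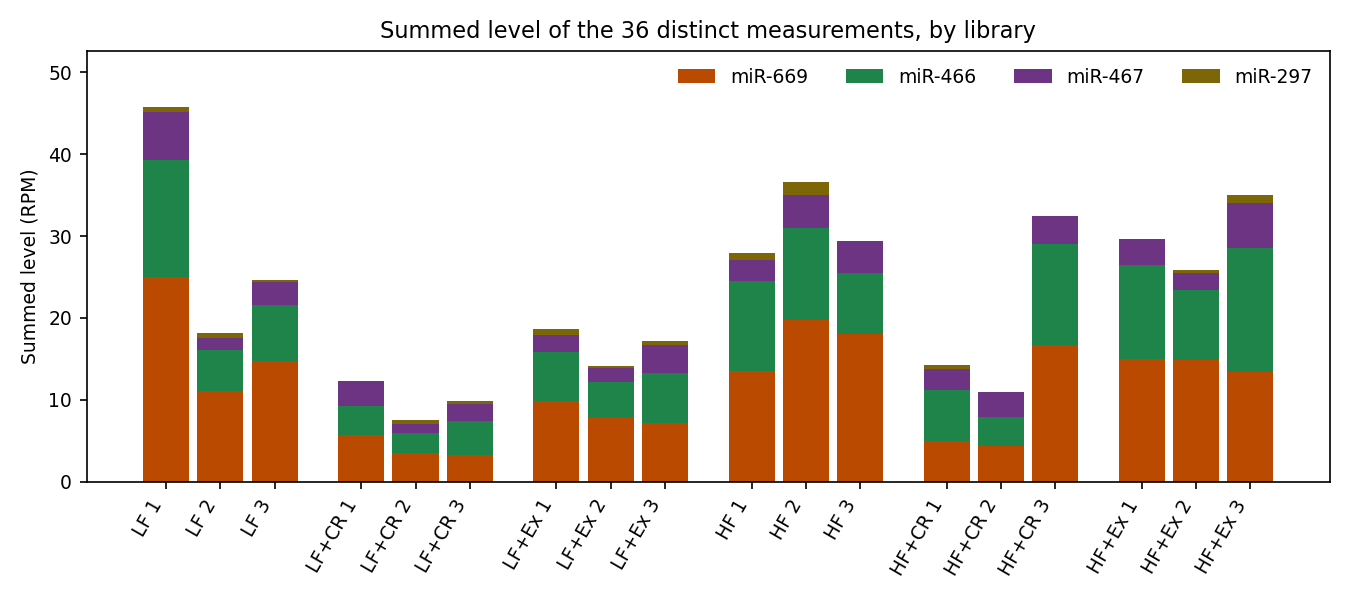
Summed level in RPM of the 36 distinct measurements in each library, stacked by family. LF 1 is the highest at 45.7 RPM, LF+CR libraries are all under 13 RPM, and HF+CR 3 stands apart from the other HF+CR libraries.

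Several other readouts were set beside these levels, and their part in the result was not tested. The 7 leukocyte and Kupffer cell miRNAs, such as miR-142-3p and miR-223-3p, summed to 8178, 2499 and 3962 RPM in LF and 2705, 2328 and 3103 RPM in LF+CR. They summed to between 6227 and 7965 RPM in HF and to 5577, 3614 and 9620 RPM in HF+CR. With Ex the range was 3164 to 4327 RPM on LF and 5557 to 7820 RPM on HF. Within LF, HF and HF+CR the library with the highest family sum (LF 1, HF 2 and HF+CR 3) also had the highest marker sum. In the other 3 groups it did not: family sums were highest in LF+CR 1, LF+Ex 1 and HF+Ex 3, and marker sums in LF+CR 3, LF+Ex 3 and HF+Ex 1. All 7 markers had differences below 0 in LF+CR against LF, with a median of -0.59, and for CR averaged over diets, with a median of -0.70, and 0 of 7 were called in either. Over all 345 measurements 74.8% and 68.1% were below 0, with medians of -0.31 and -0.16. In HF against LF 6 of the 7 markers were above 0, with a median of 0.67 and 0 called, where miR-669a/o-3p differed by 0.07.

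The same libraries, LF 1 and HF+CR 3, were also highest in the 5 epithelial and bile duct miRNAs, at 5663 and 7989 RPM against 980 to 3770 RPM elsewhere. Without LF 1 and HF+CR 3 the difference of miR-669a/o-3p in LF+CR against LF was -1.54 (limma adjusted p = 0.0105) and in HF+CR against HF -1.57 (adjusted p = 0.0111). The fit called 6.38% of all measurements in LF+CR against LF. Its share for HF+CR against HF is not given here, so that call lacks a background. Both libraries hold the highest level of miR-669a/o-3p in their group, and leaving them out was chosen after seeing the data. These p-values are therefore not an independent test. The 4 pancreatic miRNAs summed to 348 RPM in LF+CR 1 and 138 RPM in HF+CR 1, against 3.57 to 41.2 RPM in the other libraries. Without LF+CR 1 and HF+CR 1 the difference in LF+CR against LF was as large, at -2.06, with an adjusted p of 0.0615, and 0.580% of all measurements were called.

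miR-574, a UG-repeat miRNA outside these families whose sequences are shown above, was among the repeat-rich miRNAs listed for comparison. miR-574-5p held 23.3, 22.0 and 33.8 RPM in LF and 4.91, 6.46 and 13.3 RPM in LF+CR, lower without overlap like 23.8% of all measurements. It fell by 1.65 (SE 0.31, limma adjusted p = 0.00884) there and by 1.08 (SE 0.22, adjusted p = 0.0195) for CR averaged over diets. In HF+CR against HF it differed by -0.51 (SE 0.31, limma adjusted p = 0.445) and was not called. miR-574-3p, the other arm, which lacks a long UG run, differed by -1.25 in LF+CR against LF (SE 0.37, limma adjusted p = 0.0531). Its difference was -0.07 in HF+CR against HF (SE 0.37, adjusted p = 0.964) and -0.66 for CR averaged over diets (SE 0.26, adjusted p = 0.115). It held 115 ± 21.2 RPM in LF and 48.4 ± 12.8 RPM in LF+CR (SD, n = 3). Of the other repeat-rich miRNAs outside the array, miR-466q was at 0.305 RPM in LF and 0.336 RPM in LF+CR. miR-3082-5p was listed at 0 in all LF libraries and at a mean of 0.105 RPM in LF+CR. Means were lower in LF+CR than in LF for miR-466k (0.127 and 0.302 RPM), miR-466i-3p (0 and 0.0864 RPM) and miR-3082-3p (0.232 and 0.431 RPM). Libraries of the 2 groups overlapped for each of these, and all rest on few reads.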

How the data were processed

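The authors deposited RPM values for 758 mature miRNAs in 18 liver small RNA libraries, per the file headers. Per the submitters' processing notes the genome build is mm10. Which aligner and counter were used, and how reads matching more than 1 miRNA were treated, is not given in the sources used here. Depth was taken from the RPM steps: every value was a whole multiple of 1 step within 0.001 reads. RPM is a share of a library, so abundant miRNAs move the others.

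Groups came from sample titles. limma 3.58.1 in R 4.3.3 was fitted to log2(RPM + 1) of all 18 libraries, with 1 coefficient per group and an intensity trend, two-sided, after counting identical rows once, and was tested on simulated data. Named members were the tested ones and those with a mean of at least 0.5 RPM; other miRNAs came from marker, repeat-like and fragment-like lists. Members and lists were chosen with earlier results of these data known. Alternatives were other pseudocounts, filters and scalings, identical rows kept, no trend, only the compared groups, a replicate block, and libraries left out; 3 such sets were chosen after seeing the data. Annotation was RefSeq GRCm38.p6 and GENCODE M21.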

Additional observations from a re-analysis of the deposited data

How the results depend on the processing

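Under the alternatives run, the call of miR-669a/o-3p held in 13 of 18 for LF+CR against LF (values -2.11 to -1.12) and in 19 of 24 for CR averaged over diets (values -1.91 to -0.89), and the direction held in all of them. The number of members called in LF+CR against LF, 1 as reported, was 2 with identical rows kept, 0 with only the compared groups, 0 without LF+CR 1 and HF+CR 1, and from 0 to 1 with single libraries left out. For HF+CR against HF, 0 as reported, it was 1 without LF 1 and HF+CR 3, and from 0 to 1 with single libraries left out (1 without HF+CR 3). The fit without the 3 shallowest libraries leaves 1 HF+CR library, so its count in that comparison is not given. For CR averaged over diets, 1 as reported, it was 2 with a filter of 1 RPM, 2 with no filter, 2 with identical rows kept, 0 with only the compared groups, 0 without LF+CR 1 and HF+CR 1, and from 0 to 2 with single libraries left out (0 without LF 3, LF+CR 2 or HF 2, and 2 without HF+CR 3). Over all measurements the share called moved as well. In LF+CR against LF it was 6.27% with identical rows kept, 0% with only the compared groups and 0.580% without LF+CR 1 and HF+CR 1. It was 2.61% without LF 1, 0.290% without LF+CR 1 and 1.45% without LF+CR 2. For CR averaged over diets it was 0% under each alternative that left 0 members called, 3.30% with a filter of 1 RPM and 20.9% without HF+CR 3. For HF+CR against HF the share without HF+CR 3 stands with that fit above. Shares of the other alternatives counted here are not given, so their counts lack a background. The extra call with identical rows kept is the second row of the same measurement. The cause of the other changes was not tested. In the remaining 6 comparisons 0 members were called under every alternative run.

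Directions turned only for differences near 0 or with wide intervals. For miR-466a/b/c/e/p-3p in HF against LF the value was -0.017 with a pseudocount of 5, -0.031 after rescaling, and from -0.28 to 0.38 with single libraries left out (below 0 without LF 2, LF 3, HF 1 or HF 2). For miR-669a/o-3p it ran from -0.16 to 0.41 (below 0 without LF 2, LF 3 or HF 2). In HF+CR against HF, miR-466a/b/c/e/p-3p ran from -0.69 to 0.19 (above 0 without HF+CR 2). In HF+Ex against HF it ran from -0.22 to 0.21 (below 0 without HF 3 or HF+Ex 3). The CR effect on HF minus that on LF for miR-669a/o-3p was -0.033 without LF 1 and HF+CR 3 and -0.069 without the 3 shallowest libraries.

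The labels give every group replicate numbers 1 to 3. Same-numbered libraries of compared groups did not deviate together (15 correlations from -0.20 to 0.21, 3 of them over 0.1), and 8 of 30 library matches were best with their own number, so the number is taken as a name only. With the number as a replicate block, limma called 1 member in LF+CR against LF (adjusted p = 0.0198 for miR-669a/o-3p) and 1 for CR averaged over diets (adjusted p = 0.0179), with 0 in the other comparisons. Counting noise at 10 to 132 reads a library for the most abundant form, and fewer for all others, limits each value.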

Other observations

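The 5 measured entries of a list of miRNA rows that are often fragments of other RNAs, such as miR-690, miR-709 and miR-5100, were set beside the families as a sign of RNA quality. They summed to 19.0 to 28.1 RPM in LF, 32.3 to 36.9 RPM in LF+CR, 13.4 to 38.2 RPM in LF+Ex, 26.1 to 119 RPM in HF and 113 to 303 RPM in HF+CR. All LF+CR and HF+CR libraries were above the range of LF, and so were LF+Ex 1, HF 2, HF 3 and HF+Ex 1. The highest library was HF+Ex 1, at 399 RPM, which is also the shallowest. HF+CR 3 is among the 3 shallowest libraries too. The other repeat-rich rows of the fixed list, miR-3082-5p and miR-3082-3p, had means of 0.0344 and 0.269 RPM and were not tested.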
